A study of Homo sapiens with 20 samples.

Results

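The human keratin genes lie in a pair of clusters, the type II cluster on chromosome 12 and the type I cluster on chromosome 17, and the binding of cohesin across both was read from ChIP-seq peak lists. Members were the protein-coding genes of GENCODE 44 on chromosomes 12 and 17 of hg38 whose symbol is KRT followed by digits and at most 1 letter. The rule found 55 genes among the 19970 protein-coding genes of chromosomes 1 to 22 and X. Of these, 27 lay in the type II cluster, which ran from KRT80 to KRT18 (chr12:52168996-52952906, 0.784 Mb), and 28 in the type I cluster, which ran from KRT222 to KRT17 (chr17:40654665-41624842, 0.97 Mb). Peaks were counted in each cluster with 100 kb on either side.

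Chromatin of CHM13 cells, which come from a complete hydatidiform mole, and of RPE-1 cells, which come from the retinal pigment epithelium, was precipitated with antibodies to RAD21, SA1 and SA2, and both lines were immortalised with hTERT. The 20 libraries comprised 3 replicates per subunit in CHM13 and 2 in RPE-1, with total chromatin as input, and no treatment was compared. The SA1 and SA2 antibodies were the same in both lines, whereas the RAD21 antibody differed, so that cell line and antibody cannot be told apart for RAD21. Chromatin was also sheared on different sonicators, and CHM13 chromatin carried a small admixture of Drosophila chromatin, so that these steps cannot be told apart from the line either. Nor can sequencing depth. The paper reports fewer reads for the precipitated libraries of RPE-1 than for those of CHM13, apart from a shallow RAD21 library of CHM13. Replicates were pooled into 1 list per subunit and line, each list giving positions without heights or read counts, so no spread between replicates could be had and the intervals given here cover counting error only. By the methods, loci seen in fewer than 2 replicates were dropped. This asks for 2 of 3 replicates in CHM13 but for both in RPE-1, a stricter rule. The hg38 lists held 73881, 38284 and 44503 peaks for RAD21, SA1 and SA2 in CHM13 and 14998, 10724 and 6416 in RPE-1. The RPE-1 SA2 list was shorter on hg38 than on CHM13 v1.0, where it held 9579 peaks, 1.49 times as many. A peak call in a population of cells cannot tell binding in fewer cells from weaker binding, and no expression was measured here, so neither the activity of the keratin genes nor the identity of the cells could be checked.

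Keratins form the intermediate filaments of epithelial cells, and each filament is built from pairs of a type I and a type II protein. KRT8 and KRT18, with KRT7 and KRT19, are the keratins of simple epithelia. KRT5 and KRT14 mark the basal layer of stratified epithelia, KRT1 and KRT10 the layers above it, and the hair keratins the cortex and cuticle of the hair shaft. Cohesin is a ring formed by SMC1, SMC3 and RAD21 to which either SA1 or SA2 is bound. In interphase it extrudes loops of chromatin and is commonly halted where CTCF, a zinc finger protein, is bound to its motif.

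Of the 83 RAD21 peaks of CHM13 in the clusters, 15 overlapped a peak in each of the 5 other lists, 9 in the type II and 6 in the type I cluster. These sites carry most of what both lines and all subunits shared, and their sequences are given first. The CTCF core consensus, a word of 12 bases searched on both strands, was matched in 9 of the 15 sites (60%, 95% exact Clopper-Pearson interval 32.3 to 83.7), with 2 matches in 2 of them. The windows of 60 bases below are from hg38, written on the strand of the match, with the matched word in capitals.

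KRT80 to KRT7, chr12:52213567-52213626, minus strand: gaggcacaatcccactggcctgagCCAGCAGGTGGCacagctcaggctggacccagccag
KRT83 to KRT85, chr12:52327658-52327717, minus strand: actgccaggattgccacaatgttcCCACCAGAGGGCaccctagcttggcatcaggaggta
KRT85 to KRT84, chr12:52372706-52372765, plus strand: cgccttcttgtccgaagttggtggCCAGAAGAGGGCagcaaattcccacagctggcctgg
KRT78 to KRT8, chr12:52879603-52879662, minus strand: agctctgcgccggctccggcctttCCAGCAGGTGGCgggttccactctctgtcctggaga
KRT78 to KRT8, chr12:52884956-52885015, plus strand: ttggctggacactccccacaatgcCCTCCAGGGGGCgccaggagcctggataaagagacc
beyond KRT18, chr12:52980969-52981028, minus strand: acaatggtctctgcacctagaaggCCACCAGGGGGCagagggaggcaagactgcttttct
KRT28 to KRT10, chr17:40803683-40803742, plus strand: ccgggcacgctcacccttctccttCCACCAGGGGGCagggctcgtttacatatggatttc
beyond KRT17, chr17:41648041-41648100, minus strand: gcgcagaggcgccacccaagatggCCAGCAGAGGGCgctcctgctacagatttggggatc
beyond KRT17, chr17:41662794-41662853, minus strand: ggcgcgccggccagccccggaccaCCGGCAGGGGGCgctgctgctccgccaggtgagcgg

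None of these windows lay in a protein-coding gene. The site between KRT80 and KRT7 overlapped the noncoding genes LINC00592 and LINC02874, that between KRT28 and KRT10 an unnamed lncRNA gene, and the one nearer to KRT8 in the gap from KRT78 to KRT8 overlapped the processed pseudogene RPL7P41. In the sites with a single match, the word lay close to the peak centre, 4 bp from it between KRT85 and KRT84, 9 bp in the gap from KRT78 to KRT8, 1 bp between KRT28 and KRT10 and at most 60 bp, between KRT80 and KRT7. The sites with 2 matches were the middle one between KRT78 and KRT8, where both words lay off the centre (316 and 262 bp), and the first beyond KRT17 (269 and 475 bp), and a window is shown for 1 match of each. The 6 sites without a match included both on the outer side of KRT80 (chr12:52143318-52143925 and chr12:52156554-52157365), the first of the 3 between KRT78 and KRT8 and the one in an intron of CCR7, a chemokine receptor gene in the outer margin beside KRT222. The others were the sites between KRT20 and KRT23 and between KRT19 and KRT9, the latter over the lncRNA gene LINC00974.

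The consensus was frequent in the cluster peaks as a whole. It was matched in 34.9% of the 83 RAD21 peaks of CHM13 (24.8 to 46.2), beside 16% of all peaks of that list, which were of similar width (median 739 bp in the clusters and 723 bp over the list). For SA1 the shares were 43.2% (28.3 to 59) and 24.1%, and for SA2 37% (24.3 to 51.3) and 20.7%. Of the RPE-1 cluster peaks, 51.4% (34 to 68.6) in the RAD21 list, 54.5% (32.2 to 75.6) in the SA1 list and 52.6% (28.9 to 75.6) in the SA2 list held it, beside 38.4%, 34.2% and 36.7% of all peaks, and each interval included the share of its whole list. Among 2742 tiles of 739 bases in the clusters that met no peak of any list, 2.01% held the word. Of the 26 RAD21 peaks of CHM13 that met no other list, 26.9% (11.6 to 47.8) held it.

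The type II cluster held 44 RAD21, 24 SA1 and 28 SA2 peaks in CHM13 and 20, 13 and 12 in RPE-1. Its RAD21 density in CHM13 was 44.7 peaks per Mb (95% exact Poisson interval 32.5 to 60), beside 28.1 per Mb on the rest of chromosome 12, a ratio of 1.59 (conditional exact interval 1.16 to 2.14). For SA1 it was 1.72 (1.1 to 2.56) and the SA2 ratio was 1.68 (1.11 to 2.43). The RPE-1 ratios were higher in value, with 3.04 (1.85 to 4.72) from RAD21, 2.59 (1.37 to 4.47) from SA1 and 3.61 (1.85 to 6.38) from SA2. All 6 intervals lay above 1, but without the 100-kb margins those of the 3 CHM13 lists and of SA1 in RPE-1 included 1. Of 3021 windows of 1 Mb laid end to end over the genome, 438 (14.5%) held at least as many RAD21 peaks per Mb in CHM13 as the type II cluster, and 20 (0.662%) did so in RPE-1.

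The type I cluster held 39 RAD21, 20 SA1 and 26 SA2 peaks in CHM13 and 15, 9 and 7 in RPE-1. The density ratios to the rest of chromosome 17 were 1.07 (0.762 to 1.47), 1.09 (0.662 to 1.69) and 1.27 (0.829 to 1.87) in CHM13 and 1.42 (0.79 to 2.35), 1.59 (0.722 to 3.05) and 1.72 (0.684 to 3.58) in RPE-1, each interval including 1. The difference between the clusters was not tested.

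**Figure D1:**
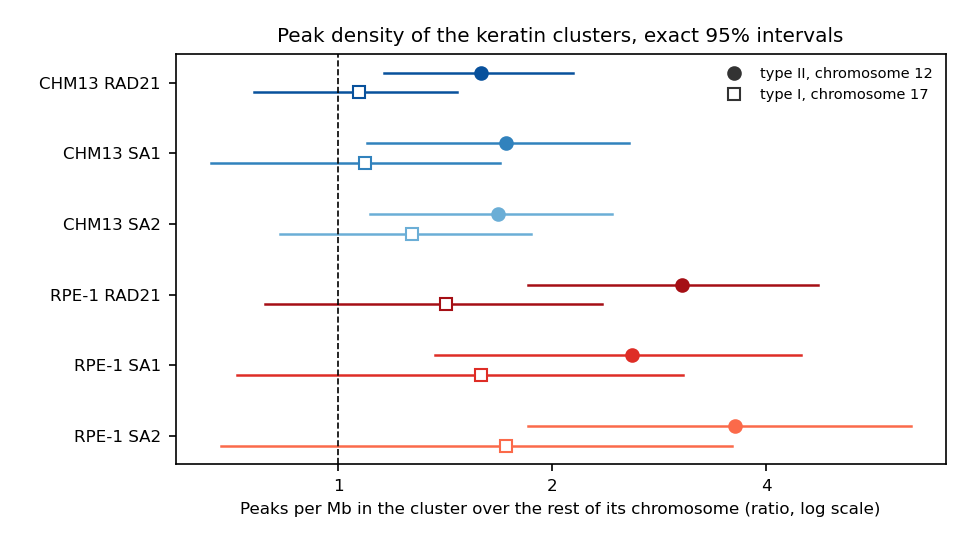
Ratio of peaks per Mb in each keratin cluster, with its 100-kb margins, to the rest of its chromosome (log scale) for the 6 lists, with conditional exact 95% intervals. Filled circles are the type II and open squares the type I cluster, and the 6 type II intervals lie above the dashed line at 1 while the 6 type I intervals cross it.

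Few keratin genes had a peak at the start. Within 1 kb of the 5′ end of the gene record, 4 of 55 genes had a RAD21 peak in CHM13, 7.27%, whereas 33.1% of all protein-coding genes did. The 4 genes were KRT80, KRT7, KRT8 and KRT18. No keratin start had an SA1 peak in CHM13 (17.7% of all genes had one), and 1 had an SA2 peak, that of KRT7 (14%). In RPE-1 no keratin start had a peak of RAD21, SA1 or SA2, where 6.22%, 2.03% and 1.57% of all genes did. The SA1 and SA2 backgrounds of RPE-1 are low for 55 genes. The median distance from a keratin start to the nearest RAD21 peak was 10.8 kb in CHM13 and 27 kb in RPE-1, beside 6.65 and 35.9 kb over all protein-coding genes.

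By class, the RAD21 start peaks of CHM13 fell mostly on keratins of simple epithelia. They lay at 3 of the 5 simple epithelial keratins, beside 33.1% of all protein-coding genes. A single peak served KRT8 and KRT18, and the canonical start of KRT8, with a peak of its own, lies elsewhere. Of the 22 epidermal and other stratified keratins 1 had such a peak (KRT80). None of the 9 of the inner root sheath and companion layer and none of the 17 hair keratins did. SA1 of CHM13 had a peak at none of the 5 simple epithelial starts and SA2 at 1. These counts are a description, without a test, since the members were chosen with results of these data known. The median distance to a RAD21 peak of CHM13 was 0.341 kb in the simple epithelial class, 6.01 kb in hair keratins, 14.4 kb in the epidermal class and 17.9 kb in the inner root sheath class. In RPE-1 the medians of the same classes were 10.2, 21.1, 44.1 and 29.8 kb, so that the last pair changed places. KRT19 and KRT20 had no start peak in any list, and their nearest RAD21 peaks of CHM13 lay 8.92 and 21.8 kb away. KRT5 and KRT14, partners in basal keratinocytes, lay 12.9 and 6.83 kb from a RAD21 peak of CHM13 and 62.4 and 37.2 kb from one of RPE-1. KRT1 and KRT10, partners in the layers above, lay 11.9 and 18.5 kb from one in CHM13 and 96.9 and 18.6 kb in RPE-1.

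**Figure D2:**
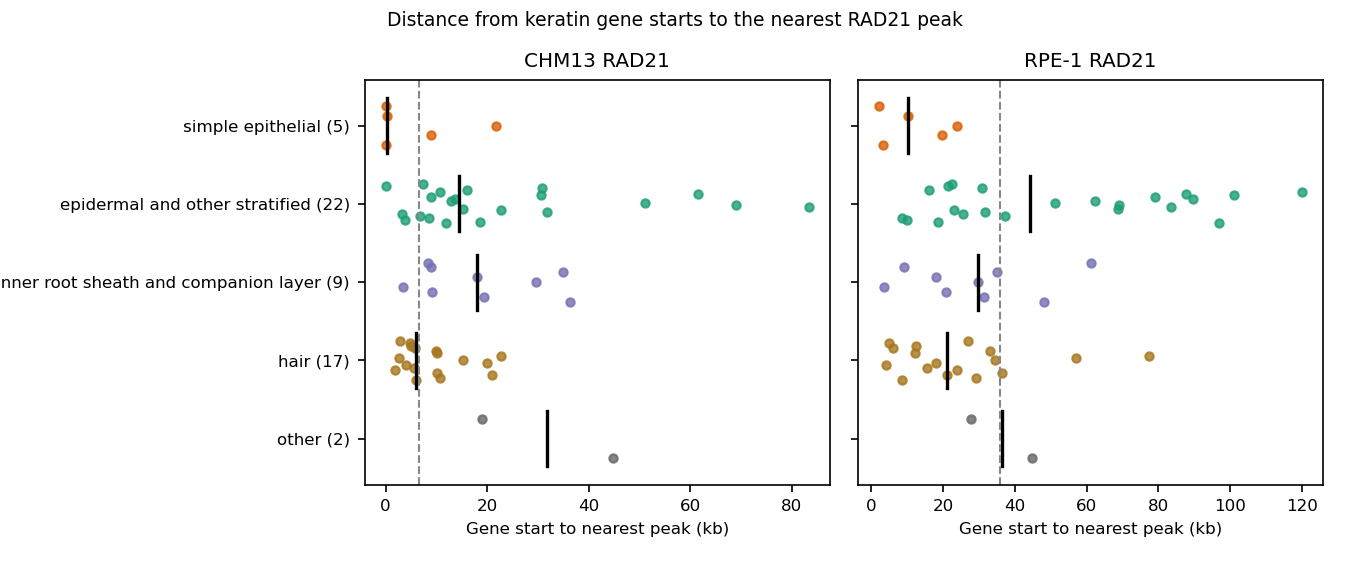
Distance in kb from the 5′ end of each keratin gene record to the nearest RAD21 peak of CHM13 (left) and RPE-1 (right), by class, with the number of genes in brackets. Points are genes, black bars class medians, and the dashed line the median over all protein-coding genes (6.65 and 35.9 kb), which the simple epithelial and hair medians lie below in both lines.

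KRT8 and KRT18 form a pair at the end of the type II cluster with the higher coordinates, and their records overlap head to head. A single RAD21 peak of CHM13 (chr12:52948863-52950159, 1297 bp) covered the start of both records and the first exon of KRT18, and it met no peak of another list. The canonical transcript of KRT8 starts elsewhere, at 52905076, and there RAD21 peaks were listed in both lines, chr12:52904937-52905422 in CHM13 and chr12:52904968-52905460 in RPE-1. This was the only keratin start, by canonical transcripts, with a peak in RPE-1. Both peaks covered 95 bases of 5′ UTR, with 45 bases of coding sequence in CHM13 and 14 in RPE-1. Each of the CHM13 peaks held 1 consensus match, shown here in windows of 30 bases with the match in capitals, the first upstream of the canonical start of KRT8 and the second in the first intron of KRT18.

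KRT8, chr12:52905167-52905196, minus strand: tgagtcctgCCCGGAGGTGGCaggtgacgg
KRT18, chr12:52950022-52950051, plus strand: gaaaaaatgCCAGGAGAGGGCcaggaagag

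Peak calls in KRT18 differed between the lists of the 2 lines. In RPE-1 a RAD21 peak (chr12:52952035-52952459) and an SA1 peak (chr12:52952126-52952407) lay over exon 6 of its 7 exons, where no list of CHM13 had a peak. RPE-1 had only 1 other RAD21 peak in the clusters without a counterpart in the RAD21 list of CHM13, at chr17:41406207-41406604 between KRT31 and KRT37. In KRT7, a RAD21 peak (chr12:52232861-52233793) and an SA2 peak (chr12:52232847-52233370) of CHM13 lay at the first exon, the first over all of it and the second over 54 bases of 5′ UTR and 74 of coding sequence, and neither held the consensus. The RAD21 peak of KRT80 (chr12:52192040-52192627) lay 26 bp outside its start. By canonical transcripts KRT15, a basal keratin, also had a RAD21 peak of CHM13 at the start (chr17:41518964-41519391). The widest RAD21 peak of the type II cluster (chr12:52924137-52925881, 1745 bp) lay within the KRT8 record and was met by 1 other list, SA2 of CHM13.

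Inside gene bodies, 13 of 55 genes had a RAD21 peak of CHM13 and 3 had one of RPE-1 (KRT86, KRT8 and KRT18), where 56% and 25.9% of all protein-coding genes did. A peak of no list lay at the start or in the body of 42 keratins, which held for 36.2% of all protein-coding genes. Keratin genes are short, with a median record of 7.1 kb beside 27.5 kb over all. In 7 genes the RAD21 peak of CHM13 overlapped the exon that codes for the end of the central rod domain: KRT80, KRT82, KRT84, KRT86 and KRT77 in the type II cluster and KRT12 and KRT36 in the type I cluster. The RPE-1 peaks of KRT18 lay on the same exon. This exon was taken as the last one of 218 to 224 bases, from the third exon on, in the canonical transcript, which 54 of the 55 genes have (KRT19 does not), and it was examined after the positions of these peaks had been seen.

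Of the 54 rod-end exons, 7 (13%) were overlapped by RAD21, 4 (7.41%) by SA1 and 3 (5.56%) by SA2 in CHM13, and 1, 1 and 0 in RPE-1. Over all 170763 internal exons of canonical transcripts the shares were 2.69%, 1.36% and 1.3% in CHM13 and 0.546%, 0.255% and 0.149% in RPE-1. Internal exons of 218 to 224 bases in other genes gave 3.31% for RAD21 in CHM13 (56 of 1691). Of the 343 other keratin exons after the first, 1 was overlapped by RAD21 in CHM13, the last exon of KRT28, in its 3′ UTR. Of the 55 first exons 3 were, those of KRT7, KRT8 and KRT18. The 7 calls were the same in number when the peak centre had to lie in the exon.

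The rod-end exon codes for a stretch that is alike among keratins, and in 10 genes its antisense strand matched the CTCF core consensus. Of these, 5 had a RAD21 peak of CHM13 (KRT80, KRT82, KRT84, KRT86 and KRT36) and 5 did not (KRT1, KRT8, KRT81, KRT83 and KRT85). None of the 17 exons whose nearest word had 2 mismatches had a peak of any list, and 3 of the 27 with 1 mismatch did (KRT12, KRT77 and KRT18). The word lay 3 bp from the centre of the RAD21 peak in KRT86, 4 bp in KRT36, 12 bp in KRT80, 21 bp in KRT84 and 43 bp in KRT82.

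A match was thus found in exons with and without a peak. Copies of similar sequence can share reads, and words of 31 bases that recur in the same cluster made up 56.8% of the KRT81 record, 12.5% of KRT86, 44% of KRT6B, 50.5% of KRT6C and 31.6% of KRT6A. Per the methods, secondary and supplementary alignments were left out, which keeps 1 placement of a read with several matches, as stated for CHM13 v1.0. The absence of a peak in KRT81 and in the KRT6 genes is uncertain for that reason. So is the placement of the peak over the rod-end exon of KRT86. Copies elsewhere in the genome were not searched, so other calls and absences are not shown to be free of this doubt.

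**Figure D3:**
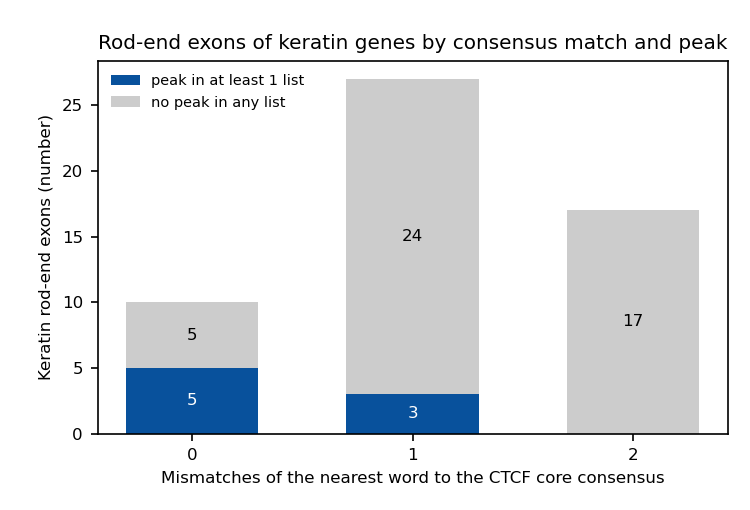
Number of keratin rod-end exons (y axis) by the mismatches of their nearest word to the CTCF core consensus (x axis), with exons overlapped by a peak of at least 1 list in blue and the others in grey. With 0 mismatches 5 of 10 exons had a peak, with 1 mismatch 3 of 27 and with 2 mismatches none of 17.

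Of the 83 RAD21 peaks of CHM13, 39 lay between genes, 22 at starts of or in keratin genes and 21 in the margins. Of 84 gaps between neighbouring protein-coding genes, 27 (32.1%) held a RAD21 peak of CHM13, 18 (21.4%) an SA1 peak and 23 (27.4%) an SA2 peak, where 50.5%, 42.9% and 43.4% of all gaps of the genome did. In RPE-1, 12 (14.3%), 10 (11.9%) and 8 (9.52%) did, where 31.1%, 24.1% and 17.1% of all gaps did. The cluster gaps were shorter (median 9.83 and 19.5 kb), and per Mb of gap they held 33.7 RAD21 peaks of CHM13 beside 21.3 over all gaps. Of the 49 gaps between neighbouring keratins (median 12.3 kb), 20 held a RAD21 peak of CHM13, beside 50.5% of all gaps. No further gap of these held a peak of another list.

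The gap between KRT78 and KRT8 (48.1 kb) held peaks in every list. It separates KRT78, the last of the epidermal type II genes, from the KRT8 and KRT18 pair. It held 4 peaks each of RAD21, SA1 and SA2 in CHM13 and 4 of RAD21, 3 of SA1 and 4 of SA2 in RPE-1, at 4 positions. From the KRT78 side these were chr12:52865085-52865883, which no SA1 peak of RPE-1 met, and the sites of all 6 lists at chr12:52870228-52871064, chr12:52879380-52880517 and chr12:52884550-52885439. The gap between KRT80 and KRT7 (40.5 kb) also held 4 RAD21 peaks of CHM13, but 1 SA1 and 2 SA2 peaks, and in RPE-1 2, 1 and 1.

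On the KRT78 side of these sites the type II cluster was sparser than in its other parts. From KRT75 to KRT78, 17 genes over 425 kb, RAD21 of CHM13 had 6 peaks, or 14.1 per Mb (5.18 to 30.7), whereas the rest of the cluster between KRT80 and KRT18 had 26 over 359 kb, or 72.4 per Mb. In RPE-1 the run held 1 RAD21 peak, between KRT74 and KRT72, 1 SA1 and 0 SA2 peaks, beside 11, 7 and 8 in the rest. The exact interval for the 0 SA2 peaks reached 8.68 per Mb. These limits of the run were chosen after the map had been seen. In all 6 lists the interval of the run included the density of the rest of chromosome 12. For RAD21 of CHM13 that density was 28.1 per Mb. A stretch of 149 kb (chr12:52715829-52865084) with KRT76, KRT3, KRT4, KRT79 and KRT78 met no peak of any list, and 3.9% of the 77053 intervals between peaks of the 6 lists over the genome were as long. Further stretches without a peak spanned KRT72, KRT73 and KRT2 (83.7 kb), KRT5, KRT71 and KRT74 (75.1 kb) and KRT6B, KRT6C and KRT6A (63.7 kb). The median interval was 14.3 kb.

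**Figure D4:**
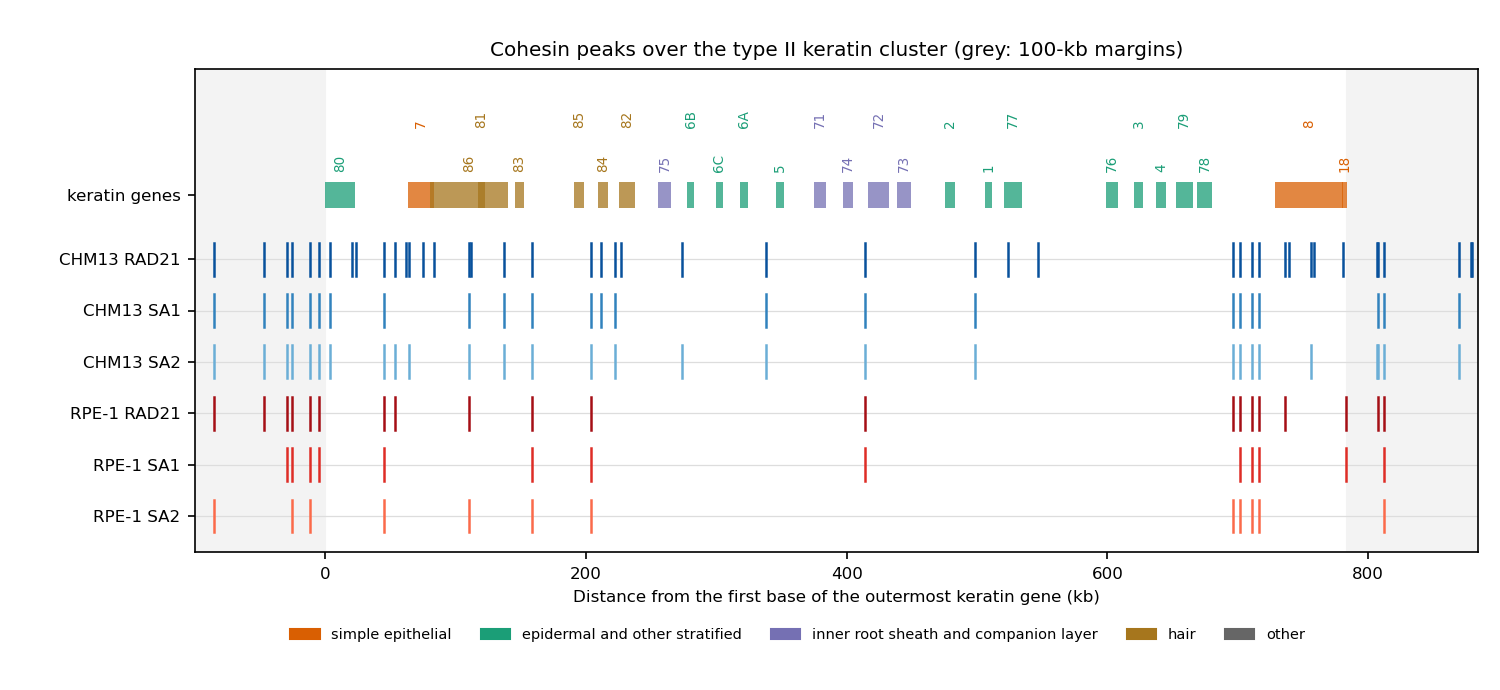
Peak centres of the 6 lists (vertical ticks) over the type II cluster, by distance in kb from the first base of KRT80, with gene records as boxes coloured by class and labelled without the prefix KRT. Ticks crowd at the KRT80 end and in the gap of 48.1 kb before KRT8, and are sparser from KRT75 to KRT78, where RAD21 of CHM13 has 6 peaks.

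In the type I cluster the longest stretches without a peak lay over keratin-associated protein genes and at the KRT222 end. KRT222, KRT24, KRT25, KRT26 and KRT27 lay in a stretch of 143 kb (chr17:40648177-40791643) that met no peak, which 4.11% of intervals reached. KRT14, KRT16 and KRT17, keratins of basal and activated keratinocytes, lay in one of 67.6 kb. The longest, 202 kb (chr17:41120428-41322069), held no keratin but 18 genes of keratin-associated proteins, which form the matrix between hair keratin filaments, and 2.46% of intervals were as long. Between these stretches, sites of all 6 lists lay between KRT28 and KRT10, KRT20 and KRT23, and KRT19 and KRT9. A site between KRT10 and KRT12 (chr17:40856783-40857712) was met by every list but SA2 of RPE-1.

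The 34 keratin-associated protein genes of chromosome 17 form a run of 322 kb inside the type I cluster. It held 10 RAD21, 3 SA1 and 9 SA2 peaks in CHM13 and none in RPE-1, where the exact interval of 0 peaks reached 11.4 per Mb. Set against a floor of 3 counts (9.31 per Mb), the RAD21 peaks of CHM13 were 3.33-fold higher in number. This fold leaves out counting error and is no lower limit. Over the rest of the genome CHM13 had 4.94 times as many RAD21 peaks as RPE-1, so the run could not be told from the rest. None of the 10 RAD21 peaks held the consensus (exact upper limit 30.8%). The widest RAD21 peak of the cluster (chr17:41059158-41060948, 1791 bp) covered KRTAP2-3. Repeated words of 31 bases made up a median of 20.7% of these 10 peaks and 0% of the other 73, and their part in the peak calls was not tested. Starts of 6 of the 34 genes had a RAD21 peak of CHM13, 1 an SA1 peak and 4 an SA2 peak, beside 33.1%, 17.7% and 14% of all protein-coding genes, so that these shares (17.6%, 2.94% and 11.8%) were below the background. None had a peak in RPE-1, where the background of 6.22%, 2.03% and 1.57% is low for 34 genes.

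**Figure D5:**
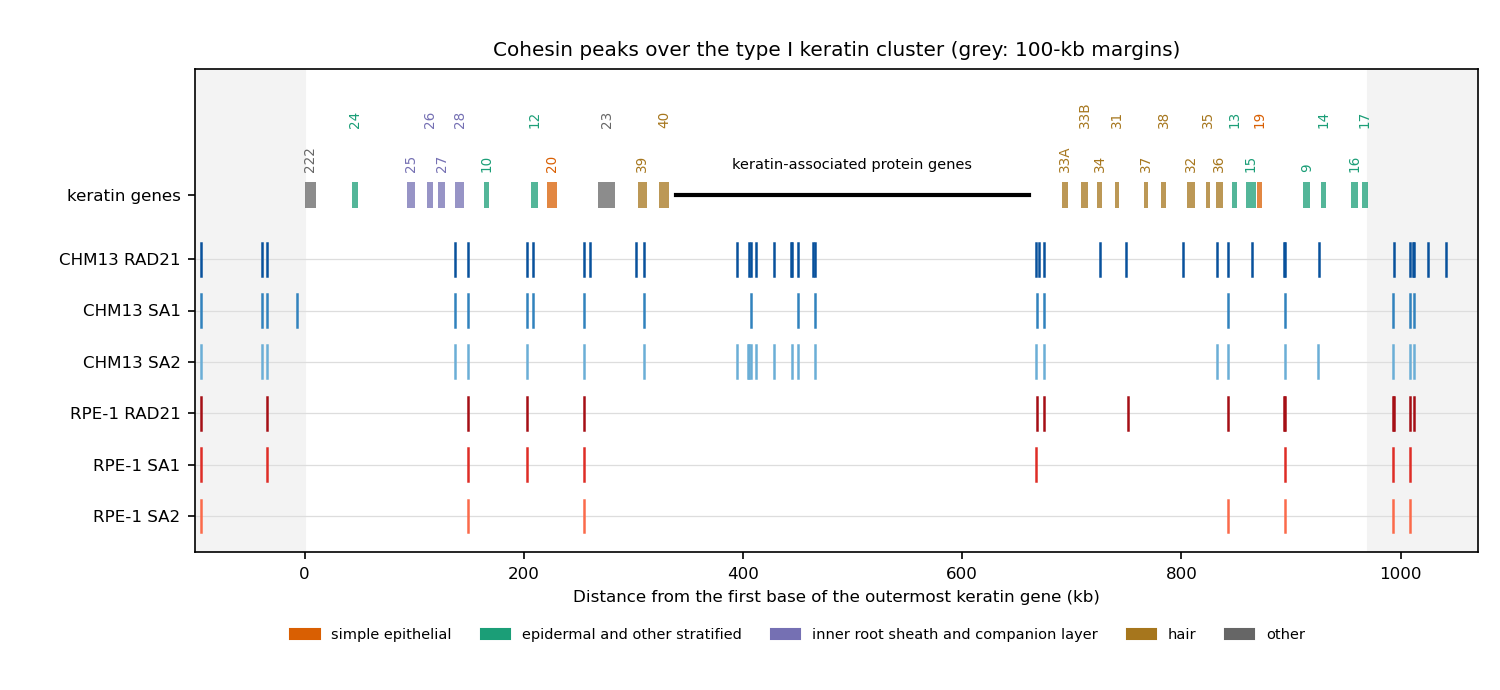
Peak centres of the 6 lists (vertical ticks) over the type I cluster, by distance in kb from the first base of KRT222, with gene records as boxes coloured by class and labelled without the prefix KRT. The black bar is the run of 34 keratin-associated protein genes, which has 10 RAD21 peaks in CHM13, all on the KRT40 side of the stretch of 202 kb without a peak, and none in RPE-1.

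The margins of the clusters were denser than their interior in part of the lists. Over both clusters, the outer 100 kb on each side held 40 SA1 peaks of CHM13 per Mb and the interior 16, a ratio of 2.51 (1.27 to 4.79). In RPE-1 the ratio was 2.92 (1.38 to 6.03) for RAD21 and 3.04 (1.15 to 7.68) for SA1. It was 1.49 (0.86 to 2.47) for RAD21 and 1.85 (0.961 to 3.39) for SA2 in CHM13 and 2.56 (0.853 to 7.05) for SA2 in RPE-1, each interval including 1. Within either cluster alone all 6 intervals included 1. Beside KRT80, the outer 100 kb held 6 peaks each of RAD21, SA1 and SA2 in CHM13 and 6, 4 and 3 in RPE-1.

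No difference between SA1 and SA2 was resolved in the clusters as a whole. SA2 peaks outnumbered SA1 peaks by 1.23-fold in the clusters of CHM13 and 1.16-fold elsewhere, an odds ratio of 1.06 (conditional exact interval 0.695 to 1.61). In RPE-1 the fold was 0.864 in the clusters and 0.596 elsewhere, an odds ratio of 1.45 (0.741 to 2.81). Both intervals included 1, and that of RPE-1 was wide. Of the 83 RAD21 peaks of CHM13, 49.4% (38.2 to 60.6) overlapped both SA1 and SA2 and 33.7% (23.7 to 44.9) neither, beside 43.1% and 37.7% of RAD21 peaks elsewhere. By place, 59.1% (36.4 to 79.3) of the 22 RAD21 peaks at starts or in keratin genes overlapped neither, whereas 71.4% (47.8 to 88.7) of the 21 in the margins overlapped both.

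Between the lines, the clusters kept a larger share of their peaks in the shorter RPE-1 lists than the rest of the genome. CHM13 had 2.37 times as many RAD21 peaks as RPE-1 in the clusters and 4.94 times as many elsewhere, an odds ratio of 0.48 (0.319 to 0.734). For SA1 the odds ratio was 0.561 (0.329 to 0.983) and for SA2 0.408 (0.238 to 0.73). The SA2 value rests on the hg38 list of RPE-1, which held 6416 peaks where that on CHM13 v1.0 held 9579. Without the margins the intervals of RAD21 (0.359 to 1.03) and SA1 (0.303 to 1.27) included 1, and against chromosomes 12 and 17 alone so did those of SA1 (0.394 to 1.19) and SA2 (0.328 to 1.02). Of the cluster peaks of CHM13, 38.6% in the RAD21 list, 47.7% in the SA1 list and 35.2% in the SA2 list met a peak of the same subunit in RPE-1, beside 19.5%, 27.2% and 14.1% elsewhere. In the other direction, CHM13 had a counterpart for 33 of the 35 RAD21 peaks of RPE-1, for 21 of its 22 SA1 peaks and for all 19 of its SA2 peaks.

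Genes whose products hold keratin filaments at junctions or share their role were counted from a fixed list of 19. RAD21 peaks of CHM13 lay at the starts of 5, VIM (vimentin, the filament protein of mesenchymal cells), JUP and DSG2 (plakoglobin and desmoglein 2, of desmosomes), and DST and PLEC (dystonin and plectin, which link filaments to hemidesmosomes). SA1 peaks of CHM13 lay at 3 and SA2 peaks at 4 of the 19 starts. These shares of 26.3%, 15.8% and 21.1% were near those of all protein-coding genes (33.1%, 17.7% and 14%), so the count is no result about the list. In RPE-1, RAD21 and SA2 were listed at DST and PLEC (10.5% each), and SA1 at none of the 19. Among all protein-coding genes 6.22%, 1.57% and 2.03% had a RAD21, SA2 and SA1 peak. That background is low for 19 genes, so these counts are no result about the list either.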

How the data were processed

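ChIP-seq reads were processed by the authors, and the deposited files are BED lists of peak positions. Per the methods, reads were aligned with bwa mem, filtered with samtools, peaks were called per replicate with macs and replicates were pooled with GenomicRanges. Loci seen in fewer than 2 replicates were then dropped. These steps are stated for CHM13 v1.0, and for hg38, which the submitters' processing notes name, no alignment is described. Peak heights and reads per peak are not in the lists, so the depth behind a single peak is unknown. The depth of each library is given in the paper, and precipitated libraries of RPE-1 were mostly shallower than those of CHM13. The 6 hg38 lists were analysed. Those on CHM13 v1.0 were used for their lengths only.

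Starts were read as counted from 0 and written from 1. Overlap meant 1 shared base, and peaks were placed by their centres. Genes came from GENCODE 44. Densities carry exact Poisson, ratios and odds ratios conditional exact, and shares exact Clopper-Pearson 95% intervals (Python 3.11.15, scipy 1.17.1), tested on simulated data. Counts of genes were set beside all protein-coding genes without a test. Named genes were KRT7, KRT8, KRT18 and KRT19, members with a start peak, at edges, or bounding the longest peak-free stretches and densest gaps. KRT5, KRT14, KRT1, KRT10 and the genes of the rod-end exon comparison were named beyond this rule, after their values were seen. Members and lists were chosen with earlier results of these data known. Alternatives concerned margins, joining, windows, starts, overlap and consensus. Sequences of the rod-end exons are not reported here.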

Additional observations from a re-analysis of the deposited data

Results flagged for a closer look

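A difference between the cell lines was seen in the clusters against the rest of the genome for each subunit. The odds ratio of CHM13 to RPE-1 peaks was 0.48 for RAD21, 0.561 for SA1 and 0.408 for SA2, with conditional exact intervals that did not include 1. They did include it without the margins for RAD21 (0.598) and SA1 (0.604), and against chromosomes 12 and 17 alone for SA1 (0.676) and SA2 (0.566). Within single clusters the interval stayed below 1 for RAD21 (0.445, 0.257 to 0.798) and SA2 (0.336, 0.165 to 0.725) in the type II cluster, and included 1 for SA1 there (0.518, 0.253 to 1.11) and for all 3 subunits in the type I cluster. A locus had to be seen in every RPE-1 replicate but not in every CHM13 replicate, and the RPE-1 SA2 list was shorter on hg38 than on CHM13 v1.0. The lists also differed in length, sequencing depth, number of replicates and, for RAD21, antibody. The part of all these in the difference was not tested.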

How the results depend on the processing

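No paired analysis was possible because the deposited lists pool the replicates, and for the same reason no replicate could be left out in turn. Of 147 values under alternatives, 117 were called the same by the rule of their kind. A ratio or odds ratio was the same if its interval stayed on its side of 1 or still included 1. Shares and medians had to stay inside the reported interval, and counts near the reported count. No ratio crossed 1 with an interval that excluded 1 before or after. Without the margins, the type II density ratio fell to 1.45 (RAD21), 1.34 (SA1) and 1.35 (SA2) in CHM13 and to 1.99 (SA1) in RPE-1, and the cell line odds ratio was 0.598 for RAD21 and 0.604 for SA1, each interval then including 1. The SA1 odds ratio did so too with peaks joined (0.576) and against chromosomes 12 and 17 alone (0.676), as did that of SA2 against chromosomes 12 and 17 (0.566). The interval of the type I density ratio in RPE-1 lay above 1 against the whole genome (ratio 2.5 for RAD21, 2.73 for SA2), with margins of 200 kb (2.11 for SA2) and, in an alternative chosen after seeing the data, without the keratin-associated run (1.96 for RAD21). Within 5 kb, start peaks were counted at 12, 5 and 5 genes in CHM13 and 4, 3 and 2 in RPE-1 for RAD21, SA1 and SA2. With canonical starts RAD21 of RPE-1 had 1, and with peaks of all 3 subunits only, RAD21 and SA2 of CHM13 had 0. With genes of every type as bounds, 21.3% of gaps held a RAD21 peak of CHM13. The stricter consensus was matched in 15.7%, 22.7% and 20.4% of cluster peaks in CHM13 and 28.6% and 27.3% for RAD21 and SA1 in RPE-1. With the peak centre required to lie in the rod-end exon, another alternative chosen after seeing the data, the 6 counts were as reported. With an overlap of 50% of both peaks, 80% of RAD21 and 78.9% of SA2 peaks of RPE-1 were met in CHM13. The cause was not tested for any of these.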

Other observations

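All but 1 of the SA1 and SA2 peaks of CHM13 in the clusters overlapped a RAD21 peak of that line, 43 of 44 and 54 of 54, beside 94.6% and 96.9% elsewhere in the genome. The exception, an SA1 peak at chr17:40647635-40648176, covered part of the 5′ UTR and an intron of SMARCE1, a gene of a chromatin remodelling complex in the margin beside KRT222. In RPE-1 all 22 SA1 and 19 SA2 peaks of the clusters overlapped RAD21, and elsewhere 78.6% and 87.9% did.

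With the stricter consensus, 15.7% of the RAD21 cluster peaks of CHM13 held a match beside 8.39% of the whole list. Of the peak-free tiles, 2 of 2742 did.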
